A study of Homo sapiens with 16 samples.

Results

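The transcripts described here are 10 genes of the TGF-beta pathway: the ligand genes TGFB1, TGFB2 and INHBA, the receptor genes TGFBR1, TGFBR2 and TGFBR3, the signal transducer SMAD3, the feedback genes SMAD7 and SKIL, and the target gene TGFBI. They were chosen by symbol, with earlier results of these data known. Each of the 10 matched 1 gene among the 18227 in the deposited tables. RNA was sequenced from A549 and H2023, both established lines derived from human lung cancers, in 16 libraries that form 8 groups of 2. Wild-type cells of each line were set beside cells labelled as a knockout of ZC3H12A, the gene of the RNase Regnase-1. Normal culture lasted 3 days and oncosphere culture, labelled as enriched for stem-like cells, lasted 7 days, so a culture difference is also a difference in time. The titles of the knockout libraries name 1 clone per line, so the edit and the clone cannot be told apart. Nothing in the labels says that replicates came from separate cultures, so p-values measure only the spread between these samples.

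TGF-beta ligands are made as latent dimers and, once freed, bind the type II receptor TGFBR2, which recruits and phosphorylates the type I receptor TGFBR1. The coreceptor TGFBR3 (betaglycan) presents ligand, TGFB2 above all. The active receptor phosphorylates SMAD2 and SMAD3, which enter the nucleus with SMAD4. Among the genes they switch on are SMAD7 and SKIL (SnoN), which act back on the pathway as inhibitors, and TGFBI, which encodes a secreted matrix protein. In epithelial tumour cells the pathway is known for growth arrest and for the transition to a mesenchymal state. Regnase-1 cleaves mRNAs at stem-loops in the 3′ UTR, with a preference for loops of a pyrimidine, a purine and a pyrimidine.

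Stem-loops with a TAT or TGT loop and a stem of at least 5 Watson-Crick pairs were found in the 3′ UTR of 4 of the 10 genes, with 6 sites in 30533 bases, or 0.197 per kb. Over 14065 genes, 14.68% had at least 1 such stem-loop, at 0.092 per kb. The search used the protein-coding GENCODE v29 transcript with the longest 3′ UTR of each gene (GRCh38) and its own strand, written in DNA letters. The sites are shown because the edited gene encodes an RNase that reads such structures. The loop is in capitals, and the flanking bases hold the stem:
TGFB2 upstream site: ctgtattgcTATgcaataggc
TGFB2 middle site: ctgtatagcTATgctataggt
TGFB2 loop TGT site: caatattttTGTaaaatccta
SKIL: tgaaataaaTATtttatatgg
SMAD3: ctattaaaaTATttttacacc
INHBA: gttatccccTGTggggaaaac
ZC3H12A: aattttaaaTATtttaagcag
In GRCh38, the TGFB2 sites lie on the + strand at chr1:218441773-218441793, chr1:218442260-218442280 and chr1:218442903-218442923, and the upstream and middle ones have a stem of 6 pairs where the third has 5. SKIL has its site at chr3:170396619-170396639 (+ strand), SMAD3 at chr15:67191746-67191766 (+ strand), INHBA at chr7:41687921-41687941 (- strand) and ZC3H12A at chr1:37484300-37484320 (+ strand). TGFB2 was the only one of the 10 genes with more than 1 site, while TGFB1, TGFBI, SMAD7 and the 3 receptor genes had none under this definition. A match of letters is a description of the sequence and does not show that the RNA is bound or cut.

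Promoters are shown for TGFB1 and TGFB2, whose levels moved together over the groups, and for SKIL. All 10 genes had a window of 250 bases before a RefSeq start, 24 windows in all (GRCh38.p14). All windows of TGFBR3, INHBA, SMAD3 and SMAD7 and most of TGFBR1 lay inside the annotated gene, so they do not cover the bases before its first base. The windows were searched on both strands. CAGAC, a short element that SMAD proteins bind, was present in 10 of the 24 windows (41.7%) against 38.003% of 35116 windows of all genes. The windows with it belong to SKIL, SMAD3, SMAD7, TGFB2 and TGFBR1. They are not independent, since TGFBR1 has 8 windows and SMAD3 has 5. Overlapping TGFBR1 windows also hold the same site (chr9:99104892-99104912). The palindrome GTCTAGAC was in none of the 24 (0.182% of all windows), and CAGACAGAC, which contains CAGAC, was in none either (0.367%). CAGAC or its reverse complement GTCTG and the cAMP response element TGACGTCA (1.646% of all windows) are in capitals:
TGFB2: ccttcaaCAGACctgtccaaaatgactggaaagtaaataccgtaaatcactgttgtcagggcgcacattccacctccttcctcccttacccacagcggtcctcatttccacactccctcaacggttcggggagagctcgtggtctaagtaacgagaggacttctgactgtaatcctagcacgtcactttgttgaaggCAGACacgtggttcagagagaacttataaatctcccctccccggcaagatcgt
TGFB1: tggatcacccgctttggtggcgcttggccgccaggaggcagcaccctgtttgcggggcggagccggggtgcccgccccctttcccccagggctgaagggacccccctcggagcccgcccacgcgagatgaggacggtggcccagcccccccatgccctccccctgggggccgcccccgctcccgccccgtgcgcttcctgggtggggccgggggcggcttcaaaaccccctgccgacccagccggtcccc
SKIL: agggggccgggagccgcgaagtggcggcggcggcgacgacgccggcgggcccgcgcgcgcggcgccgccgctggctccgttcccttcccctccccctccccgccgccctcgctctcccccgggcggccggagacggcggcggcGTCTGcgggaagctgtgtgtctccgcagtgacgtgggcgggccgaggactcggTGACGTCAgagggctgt
The TGFB2 window (chr1:218345086-218345335, + strand) holds 2 CAGAC, 243 and 53 bases before the start, and the TGFB1 window (chr19:41353923-41354172, - strand) holds none. The SKIL stretch (chr3:170357465-170357677, + strand, trimmed to the bases before the annotated gene) holds 1 GTCTG and 1 TGACGTCA. SMAD7 had 3 windows, all inside the annotated gene (chr18:48919853-48952052, - strand). In 1 of them there was 1 GTCTG, 193 bases before its RefSeq start. Another had 2 CAGAC, 217 and 128 bases before its RefSeq start, at chr18:48951170-48951190 and chr18:48951081-48951101 (- strand):
SMAD7 distal: gacgccccCAGACctctgagg
SMAD7 proximal: tattttgcCAGACgtctcatg
The AP-1 site TGAGTCA was found for SMAD3 alone (4.203% of all windows).

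Levels are given in TPM, a share of all transcripts that is scaled for transcript length. Sequencing depth per library is unknown, since TPM does not keep it, but the authors' deposited mean normalized counts summed to 20453740 to 22760512 per table. In bulk RNA, fewer cells of a type and less RNA per cell cannot be told apart. Differences were tested with limma on log2(TPM + 1), with 1 model over all 16 libraries and Benjamini-Hochberg adjustment over 18227 genes per comparison, and a gene is called at an adjusted p under 0.05. Of the 10 genes, 9 were at 1 TPM or more in all 16 libraries. INHBA reached 1 TPM in 1 library and was listed at 0 in 3.

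The mRNA of the targeted gene was higher, not lower, in the libraries labelled knockout in 3 of the 4 comparisons. Of these rises limma called that in H2023 oncospheres alone. An mRNA level does not show what the edit did to the protein. ZC3H12A was lower in A549 normal culture, at 16.9 and 19.9 TPM with the knockout label and 30.7 and 34.9 TPM in wild type. It was higher in A549 oncosphere culture (60.2 and 55.6 against 48.5 and 49.2 TPM), in H2023 normal culture (41.5 and 41.5 against 26.8 and 29.9 TPM) and in H2023 oncosphere culture (94.6 and 69.2 against 32.5 and 26.4 TPM). Adjusted p-values of limma were 0.00387, 0.304, 0.0835 and 0.00045 in that order. In the authors' deposited table the higher ZC3H12A passed the threshold in A549 oncospheres (0.45, adjusted p = 0.0171) and H2023 normal culture (0.55, adjusted p = 0.008) as well. On the 4 libraries of H2023 oncospheres alone limma gave an adjusted p of 0.221, in a fit that called no gene at all. The edit itself was not examined here, so every direction below is that of the libraries labelled knockout over wild type. Of 6 epithelial markers, KRT8 was at 765 to 5982 TPM over the 16 libraries. In A549 normal culture EPCAM (0.37 to 1.98 TPM) and CLDN4 (0.24 to 0.69 TPM) were low. KRT19 was at 0.67 and 0.29 TPM in the knockout libraries of that culture. By group mean, 3 of the 6 markers reached 1 TPM in A549 knockout in normal culture, and 5 or 6 did in each other group. Of the lung lineage markers only NAPSA was analysed here, at 1.02 to 6.03 TPM. LYZ was at 0 in 6 of the 8 libraries of normal culture and at 18.6 and 6.81 TPM in wild-type A549 oncospheres. Leukocyte markers (CD14 and LYZ, of 5 listed) summed to 0.48 to 66.2 TPM, fibroblast markers (3 of 6) to 1.34 to 10.1 TPM and the endothelial PECAM1 to no more than 2.76 TPM.

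**Figure D1:**
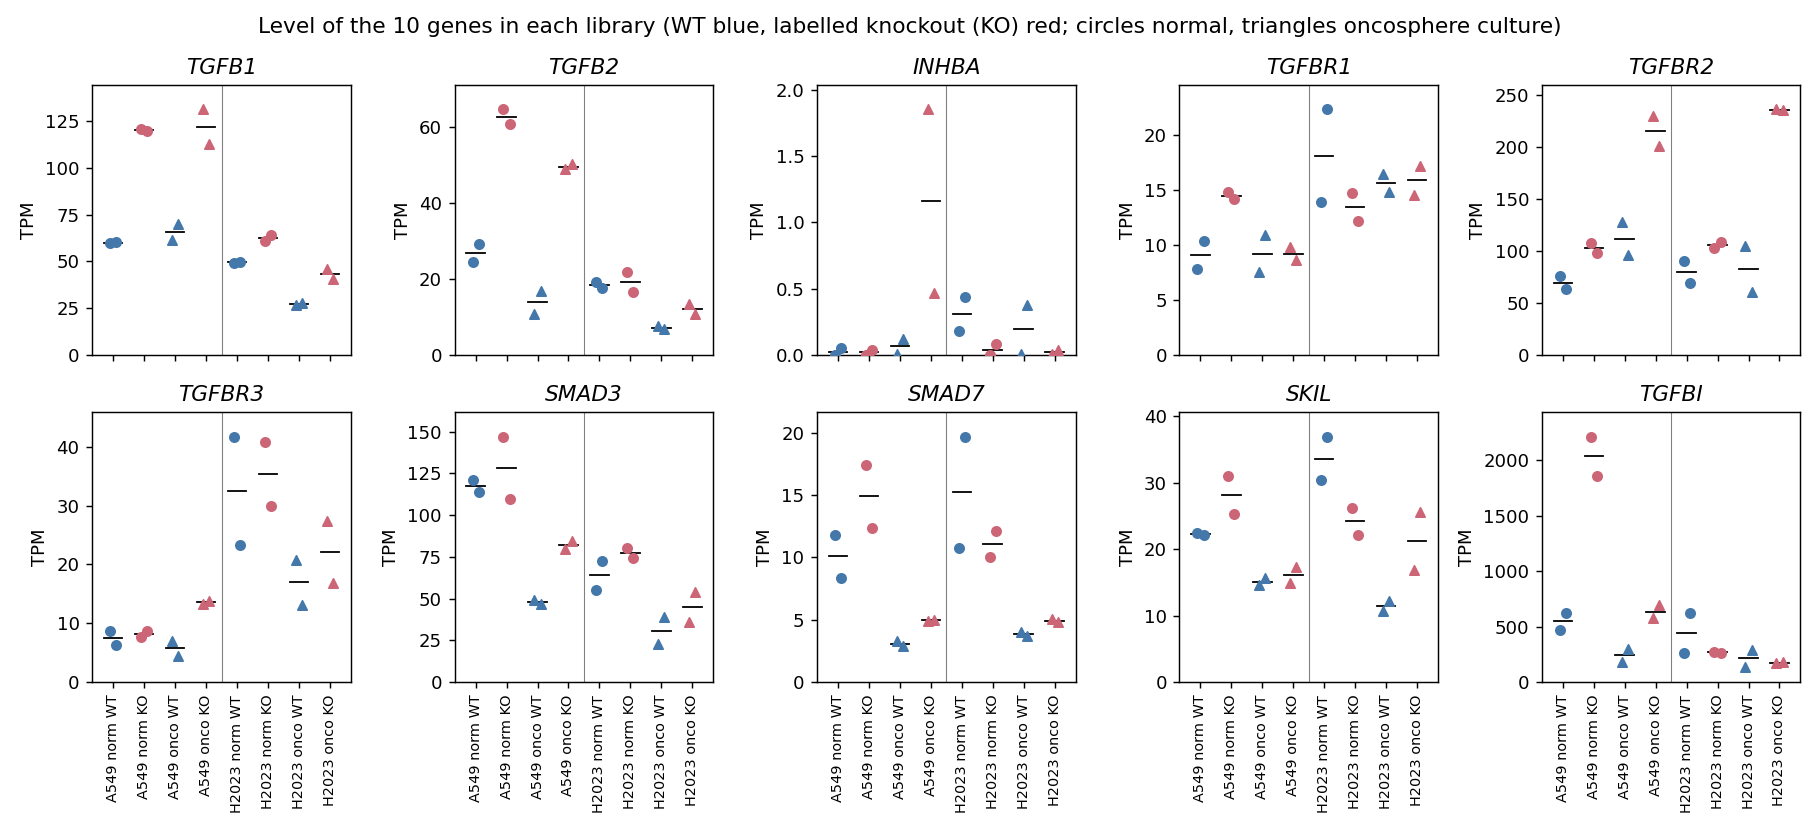
TPM of each gene (linear axes from 0, a scale of its own per panel) in the 16 libraries, with 2 points per group and a bar at the group mean; norm and onco are normal and oncosphere culture, and KO the libraries labelled knockout. TGFB1 and TGFB2 are highest in the 4 A549 libraries labelled knockout, SMAD7 is low in every oncosphere group, and TGFBI reaches 2216 TPM in A549 normal culture.

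The first question was how the knockout label changes the pathway's genes, asked separately in each line and culture. In A549 both TGF-beta ligand genes and the target gene TGFBI were higher in both cultures, and in oncosphere culture TGFBR2, TGFBR3, SMAD3 and INHBA were higher as well. Limma called 3 of the 10 genes in A549 normal culture, all higher (17.7% of all genes called, 7.32% higher), and 7 of the 10 in A549 oncosphere culture, all higher (20.7% of all genes called, 10.2% higher). In H2023 it called 0 of 10 in normal culture (3% of all genes called, 1.03% higher and 1.97% lower) and 3 of 10 in oncosphere culture, TGFBR2, SKIL and TGFB1, all higher (5.56% of all genes called, 3.17% higher and 2.4% lower). Over the 10 genes the log2 fold change had a median of 0.54 and 0.91 in A549 normal and oncosphere culture and -0.14 and 0.46 in the same cultures of H2023. Over all genes it was -0.03, 0.03, 0.01 and 0.06 in the same order. No gene of the 10 was called lower in any of the 4 comparisons.

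TGFB1 (ENSG00000105329, chr19:41301587-41353911, - strand), the most widely expressed of the ligands, was at 59.8 and 60.3 TPM in wild-type A549 in normal culture and at 121 and 119 TPM in those labelled knockout. In A549 oncospheres it was at 61.3 and 69.9 TPM in wild type and at 131 and 113 TPM in knockout. All 4 A549 libraries labelled knockout thus lay above every other library. H2023 gave 49.4 and 49.8 against 60.9 and 63.9 TPM in normal culture, and 26.7 and 27.8 against 45.9 and 40.6 TPM in oncospheres, with wild type first. The groups did not overlap in any of the 4 comparisons. The log2 fold change was 0.99 (SE 0.10, adjusted p = 6.59e-05) in A549 normal culture and 0.88 (SE 0.10, adjusted p = 8.44e-05) in A549 oncospheres. In H2023 the difference in normal culture, 0.33, did not pass (limma, adjusted p = 0.115), while that in oncospheres, 0.64, did (adjusted p = 0.0049). TGFB1 shares its locus with 4 genes of the opposite strand, among them HNRNPUL1, and whether the counting used strand is not given in the sources used here.

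Ordered by group mean, TGFB1 was highest in the A549 knockout groups (122 TPM in oncosphere and 120.1 TPM in normal culture), whose libraries overlapped. Wild-type A549 oncospheres (65.6 TPM) and H2023 knockout in normal culture (62.4 TPM) came next and also overlapped. Wild-type A549 in normal culture (60.0 TPM), wild-type H2023 in normal culture (49.6 TPM), H2023 knockout oncospheres (43.2 TPM) and wild-type H2023 oncospheres (27.2 TPM) followed without overlap between neighbours.

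TGFB2 (ENSG00000092969, chr1:218346235-218444619, + strand), the ligand that depends most on betaglycan, was at 24.4 and 29.1 TPM in wild-type A549 and 64.5 and 60.6 TPM in the knockout in normal culture. In A549 oncospheres the values were 10.7 and 16.9 TPM in wild type and 48.8 and 50.1 TPM in knockout. Every A549 library labelled knockout was above every other library of the study, as for TGFB1. H2023 had 19.1 and 17.7 TPM in wild type and 21.8 and 16.7 TPM in knockout in normal culture, which overlapped. H2023 oncospheres had 7.58 and 6.83 TPM in wild type and 13.5 and 10.9 TPM in knockout, with no overlap. TGFB2 rose by 1.20 on the log2 scale in A549 normal culture (SE 0.19, adjusted p = 0.00137) and by 1.80 in A549 oncospheres (SE 0.19, adjusted p = 4.72e-05). In H2023 the differences were 0.05 in normal culture (adjusted p = 0.944) and 0.68 in oncospheres, just short of the threshold (limma, adjusted p = 0.0595). The transcript TGFB2-OT1 overlaps TGFB2 on the same strand and could share its reads.

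INHBA (ENSG00000122641, chr7:41667168-41705834, - strand), which encodes the subunit of activin A, was close to 0 almost everywhere. In A549 it was at 0 and 0.05 TPM in wild type and 0 and 0.04 TPM in knockout in normal culture, and at 0.01 and 0.12 against 1.85 and 0.47 TPM in oncospheres. H2023 had 0.18 and 0.44 against 0 and 0.08 TPM in normal culture and 0.01 and 0.38 against 0.01 and 0.04 TPM in oncospheres. Only the A549 oncospheres labelled knockout stood above the other groups, and their 2 libraries differed widely. The difference on the log2(TPM + 1) scale there was 0.94 (SE 0.24, limma adjusted p = 0.0157). At these levels the pseudocount sets the size, and with 0.1 TPM in place of 1 the difference was 2.76 (adjusted p = 0.0193). The authors' deposited table gave 3.29 (adjusted p = 0.00196) on a mean normalized count of 38.1. With limma it fell short of the threshold on the 4 libraries alone (adjusted p = 0.121) and without replicate 1 of wild type or of knockout, with values down to 0.47. An antisense gene, INHBA-AS1, overlaps the locus.

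Among the receptors, TGFBR2 gave the clearest difference. TGFBR2 (ENSG00000163513, chr3:30606502-30694142, + strand), the type II receptor that binds ligand first, was at 75.6 and 63.2 TPM in wild-type A549 and 107 and 98.4 TPM in knockout in normal culture, and at 128 and 95.8 against 230.0 and 202 TPM in oncospheres. In H2023 it was at 90.4 and 69.4 against 103 and 109 TPM in normal culture and at 105 and 60.7 against 236 and 236 TPM in oncospheres. Both libraries labelled knockout were above both wild-type libraries in each of the 4 comparisons, and the 4 oncosphere libraries labelled knockout were the highest of all. The log2 fold changes were 0.57 (adjusted p = 0.0966) and 0.95 (adjusted p = 0.0087) in A549 normal and oncosphere culture, and 0.42 (adjusted p = 0.356) and 1.55 (adjusted p = 0.00266) in H2023 (limma). The call in A549 oncospheres was lost without replicate 2 of wild type or replicate 1 of knockout.

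TGFBR3 (ENSG00000069702, chr1:91680343-91906335, - strand), betaglycan, was at 8.64 and 6.24 TPM in wild-type A549 and 7.61 and 8.75 TPM in knockout in normal culture, which overlapped. In A549 oncospheres it was at 6.98 and 4.46 against 13.3 and 13.8 TPM, with no overlap. H2023 held more, with 41.7 and 23.3 against 40.8 and 30.0 TPM in normal culture and 20.8 and 13.1 against 27.3 and 16.9 TPM in oncospheres. The groups overlapped in both H2023 cultures. Its one call was in A549 oncospheres, at 1.14 (SE 0.32, limma adjusted p = 0.0237), and it was lost without any 1 of 3 of the 4 libraries compared, all but replicate 1 of wild type.

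TGFBR1 (ENSG00000106799, chr9:99104038-99154192, + strand), the kinase that phosphorylates SMAD2 and SMAD3, was called in none of the 4 comparisons. It was at 7.82 and 10.4 against 14.8 and 14.2 TPM in A549 normal culture, without overlap, and at 7.54 and 10.9 against 9.78 and 8.65 TPM in A549 oncospheres. In H2023 it was at 13.9 and 22.3 against 14.7 and 12.2 TPM in normal culture and at 16.5 and 14.9 against 14.6 and 17.2 TPM in oncospheres. The 95% interval of the log2 difference was -0.47 to 0.51 in the oncospheres of each line, and 0.14 to 1.12 in A549 normal culture, where the adjusted p was 0.0737.

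SMAD3 (ENSG00000166949, chr15:67063763-67195195, + strand), the transducer that binds CAGAC, was at 121 and 114 TPM in wild-type A549 and 147 and 109.7 TPM in knockout in normal culture, where the groups overlapped. A549 oncospheres had 49.4 and 46.8 against 79.5 and 84.4 TPM. H2023 had 55.2 and 72.6 against 80.1 and 74.1 TPM in normal culture and 22.8 and 38.7 against 36.1 and 53.9 TPM in oncospheres, where the groups overlapped. Limma called SMAD3 in A549 oncospheres alone, at 0.76 (SE 0.24, adjusted p = 0.0403). That call was lost when any 1 of the 4 libraries was left out, though the value stayed between 0.72 and 0.80. The locus holds 2 antisense genes.

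Of the feedback genes, SMAD7 (ENSG00000101665, chr18:48919853-48952052, - strand), which blocks the type I receptor, was at 11.8 and 8.33 against 17.5 and 12.4 TPM in A549 normal culture and at 3.27 and 2.89 against 4.93 and 4.98 TPM in A549 oncospheres. H2023 gave 10.7 and 19.7 against 10.03 and 12.2 TPM in normal culture and 4 and 3.71 against 5.07 and 4.78 TPM in oncospheres. The groups did not overlap in 3 of the 4 comparisons, and none was called, with adjusted p-values of 0.184, 0.159, 0.503 and 0.575 (limma). SKIL (ENSG00000136603, chr3:170357678-170396835, + strand), which encodes the SMAD repressor SnoN, was at 22.4 and 22.1 against 31.1 and 25.3 TPM in A549 normal culture and at 14.6 and 15.6 against 14.99 and 17.3 TPM in A549 oncospheres. In H2023 it was at 30.4 and 37.0 against 26.3 and 22.1 TPM in normal culture and at 10.6 and 12.1 against 16.8 and 25.7 TPM in oncospheres. The H2023 groups were apart in opposite directions in the 2 cultures. SKIL rose by 0.82 in H2023 oncospheres (SE 0.19, limma adjusted p = 0.0257) and differed by -0.46 in H2023 normal culture (adjusted p = 0.222). Its rise was lost without either wild-type library or without replicate 2 of knockout.

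TGFBI (ENSG00000120708, chr5:136028895-136063818, + strand), the matrix protein gene named for its induction by TGF-beta, had the highest TPM of the 10 genes in 14 of the 16 libraries. In A549 normal culture it was at 471 and 622 TPM in wild type and 2216 and 1863 TPM in knockout. A549 oncospheres had 184 and 301 against 577 and 696 TPM, again with no overlap. H2023 had 264 and 625 against 275 and 262 TPM in normal culture and 135 and 293 against 172 and 177 TPM in oncospheres. The H2023 groups overlapped in both cultures. TGFBI rose by 1.91 in A549 normal culture (SE 0.39, adjusted p = 0.00625) and by 1.42 in A549 oncospheres (SE 0.39, adjusted p = 0.0224, limma). The call in normal culture was lost without replicate 1 of wild type (1.71, adjusted p = 0.0604), and that in oncospheres without any library but replicate 2 of wild type. In H2023 the differences were -0.59 (interval -1.45 to 0.26) and -0.19 (interval -1.04 to 0.67). Replicate 2 of wild-type H2023 in normal culture was also high in PMEPA1 (73.5 against 16.2 TPM in replicate 1), and without it the TGFBI difference was 0.03. The part of that library in the result was not tested further.

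**Figure D2:**
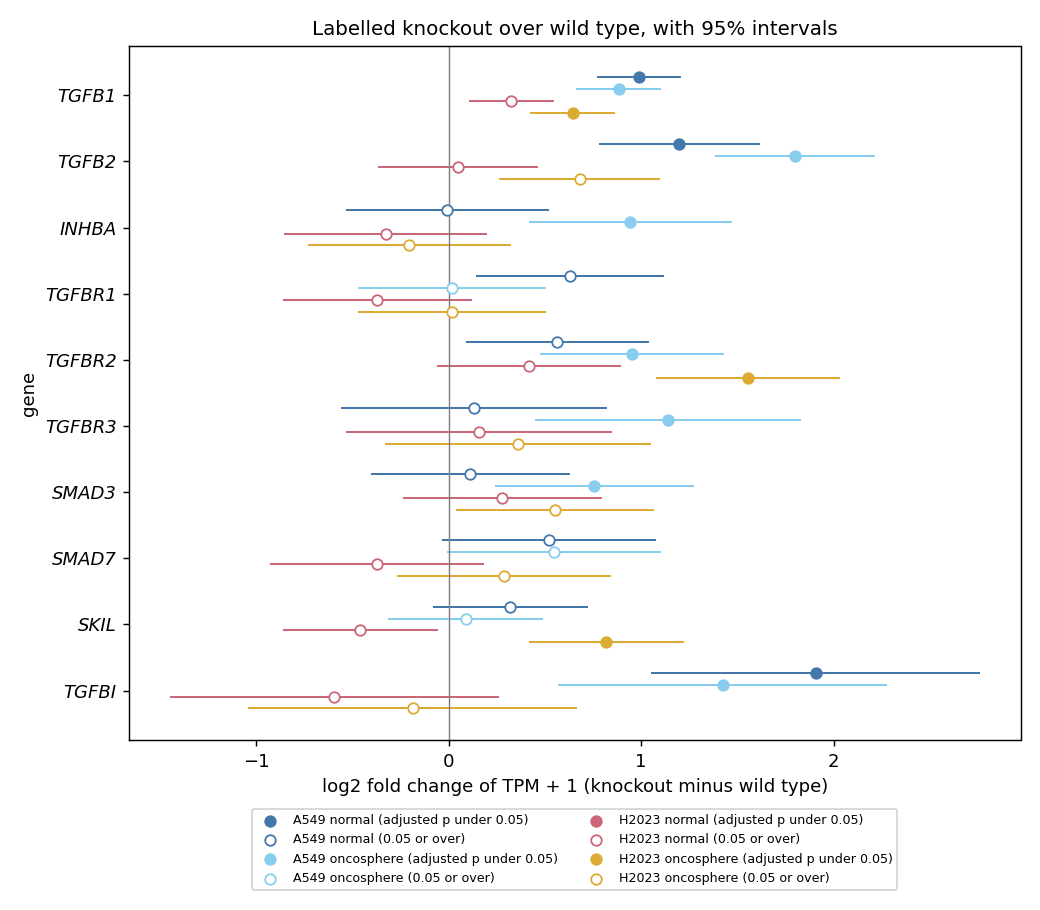
Log2 fold change of TPM + 1, libraries labelled knockout minus wild type, for the 10 genes in 4 comparisons, with 95% intervals of the limma fit; filled points passed an adjusted p of 0.05. TGFB1 and TGFB2 are past it in both A549 cultures, TGFBR2 in both oncosphere comparisons, and no point of H2023 normal culture is filled.

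In A549 normal culture the wild-type and knockout libraries did not overlap for 7 of the 10 genes, against 61.7% of all genes, and in oncosphere culture for 8, against 60.5%. In H2023 the number was 5 in each culture, against 50.6% and 47.5%. The 0 calls in H2023 normal culture stood beside 2 genes at an unadjusted p under 0.05, TGFB1 and SKIL. By the authors' deposited table for each comparison, 6, 7, 1 and 1 of the 10 genes were past an adjusted p of 0.05 in A549 normal, A549 oncosphere, H2023 normal and H2023 oncosphere culture, against 22.1%, 20.7%, 10.8% and 5.07% of the genes with an adjusted p there (9.29% higher in A549 oncospheres, and 3.84% higher and 6.97% lower in H2023 normal culture). The authors' deposited table added TGFBR1 (0.84), TGFBR2 (0.61) and SKIL (0.55) in A549 normal culture and a lower SKIL in H2023 normal culture (-0.54, adjusted p = 0.0458). For H2023 oncospheres it listed TGFBR2 alone (1.39, adjusted p = 2.22e-05). TGFB1 (0.47, adjusted p = 0.158) and SKIL (0.50, adjusted p = 0.319) missed the threshold in it. With a limma fit on just the 4 libraries of that comparison, 0 of the 10 genes were called there, with 0.231 as the adjusted p of both TGFB1 and TGFBR2. That fit called no gene at all, so its count says nothing about these 10 in particular. In A549 oncosphere culture, 4 genes were called without replicate 1 or without replicate 2 of wild type or without replicate 2 of knockout, and 2, TGFB1 and TGFB2, without replicate 1 of knockout.

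The levels of 6 epithelial markers (EPCAM, CDH1, KRT8, KRT18, KRT19 and CLDN4) were summed. In A549 normal culture the sums were 7417 to 7626 TPM in wild type and 1451 to 2524 TPM in knockout. There 4 of the 6 were called lower, against 10.4% of all genes. In A549 oncospheres the sums overlapped, at 5237 to 6575 and 4998 to 7198 TPM, with 3 of the 6 lower (all genes 10.5%). In H2023 normal culture the sums were 5888 to 7300 TPM in wild type and 9817 to 10680 TPM in knockout. There 0 of 6 were called (all genes 3%). The sums are mostly KRT8 and KRT18, which were higher in that knockout. KRT19 was lower there (374 and 258 TPM in wild type, 126 and 130 TPM in knockout). EPCAM (20.3 and 17.8 against 15.6 and 11.9 TPM) and CLDN4 (1.13 and 1.03 against 0.62 and 0.85 TPM) were lower too, and CDH1 overlapped. In H2023 oncospheres the sums were 3424 to 3450 TPM in wild type and 6555 to 7089 TPM in knockout. There 2 of the 6 markers were higher and 1 lower (all genes 3.17% and 2.4%). Their part in the differences of the pathway's genes was not tested.

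The knockout effect was then compared between the cultures and between the lines. The A549 effect did not differ between cultures for any of the 10 genes past the threshold (9.71% of all genes did, 5.61% higher and 4.1% lower), with 3 of the 10 at an unadjusted p under 0.05, INHBA, TGFB2 and TGFBR3. In H2023 the count was 0 of 10 as well (1 gene of all, 0.00549%), with SKIL, TGFBR2, TGFB1 and TGFB2 at an unadjusted p under 0.05. The largest of these was SKIL, whose effect was 1.28 higher in oncospheres (interval 0.71 to 1.85, unadjusted p = 0.000378, limma adjusted p = 0.271), followed by TGFBR2 at 1.14 (interval 0.46 to 1.81, adjusted p = 0.405). By the difference of the authors' deposited fold changes, TGFBR1 and TGFBR3 differed between the A549 cultures. Without replicate 2 of wild-type A549 oncospheres TGFB2 alone was called, and without replicate 2 of the knockout INHBA alone.

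Between the lines, the effect in normal culture was smaller in H2023 than in A549 for 3 of the 10 genes (12.1% of all genes called, 5.46% lower). The difference was -2.50 for TGFBI (SE 0.55, adjusted p = 0.0132), -1.15 for TGFB2 (SE 0.27, adjusted p = 0.0174) and -0.66 for TGFB1 (SE 0.14, adjusted p = 0.0118, limma). TGFB2 was lost without replicate 1 of A549 knockout or replicate 2 of H2023 knockout. Without replicate 1 of wild-type A549 TGFB1 alone was called, without replicate 1 of wild-type H2023 SMAD7 and TGFBR1 were added, and the authors' deposited fold changes gave 6 genes. In oncosphere culture 2 of the 10 differed (16.3% of all genes called, 9.37% higher and 6.9% lower), TGFB2 by -1.12 (SE 0.27, adjusted p = 0.0146) and INHBA by -1.15 (adjusted p = 0.0392). TGFB1, whose fold change was 0.88 in A549 and 0.64 in H2023 oncospheres, gave a difference of -0.24 with an interval of -0.55 to 0.07. Leaving out 1 library moved the count in oncospheres to between 0 and 4 (0 without replicate 1 of wild-type A549 or replicate 2 of H2023 knockout, 1 without any of the other A549 libraries or replicate 2 of wild-type H2023, 4 without replicate 1 of wild-type H2023), and 0 were called on the 8 oncosphere libraries alone.

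The second question was how these genes differ between oncosphere and normal culture. SMAD7, the receptor inhibitor, was lower in oncospheres in both lines and both genotypes, and SMAD3 and SKIL were lower in 3 of the 4 comparisons each. TGFBR2 went the other way and was higher in 3 of 4. In wild-type A549 limma called 5 of the 10 genes lower and 1 higher (41.5% of all genes called, 22.4% lower and 19.1% higher), and in A549 knockout 3 lower and 2 higher (22.4% of all genes called, 11% lower and 11.4% higher). In wild-type H2023 5 were lower and 0 higher (27.4% of all genes called, 22.2% lower and 5.17% higher), and in H2023 knockout 4 lower and 1 higher (32.5% of all genes called, 22.7% lower and 9.76% higher). The median of the 10 genes was -0.44, -0.47, -0.95 and -0.57 in this order, against -0.02, -0.01, -0.18 and -0.12 over all genes. Of the genes called in wild-type H2023 18.9% were higher, but 51.7% when libraries were centred on their medians, which moved the median of all genes to 0.06. In H2023 knockout the share was 30% and became 48.2%. SMAD7 was called lower in all 4 comparisons under that scaling too.

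SMAD7 fell by 1.43 on the log2 scale in wild-type A549 (SE 0.26, adjusted p = 0.000827) and by 1.40 in A549 knockout (adjusted p = 0.00205). In H2023 it fell by 1.68 in wild type (adjusted p = 0.000638) and by 1.02 in knockout (adjusted p = 0.00902, limma). All 8 oncosphere libraries were at 2.89 to 5.07 TPM, and all 8 libraries of normal culture at 8.33 to 19.7 TPM. SKIL fell by 0.53 and 0.76 in A549 wild type and knockout and by 1.48 in wild-type H2023 (adjusted p = 0.0365, 0.0109 and 0.000198, limma). H2023 knockout differed for SKIL by -0.20, with an interval of -0.61 to 0.20. SMAD3 fell by 1.27 in wild-type A549, 1.06 in wild-type H2023 and 0.79 in H2023 knockout (adjusted p = 0.00106, 0.00588 and 0.023, limma), and differed by -0.63 in A549 knockout (adjusted p = 0.0799).

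Of the ligand genes, TGFB1 was lower in H2023 oncospheres, with differences of -0.84 in wild type (adjusted p = 0.00016) and -0.52 in knockout (adjusted p = 0.00196, limma), while in A549 the difference was 0.12 (interval -0.10 to 0.34) and 0.02 (interval -0.20 to 0.24). TGFB2 fell by 0.93 in wild-type A549, by 1.24 in wild-type H2023 and by 0.61 in H2023 knockout (adjusted p = 0.002, 0.000689 and 0.0282, limma), and differed by -0.33 in A549 knockout (adjusted p = 0.248). TGFBI fell by 1.20 in wild-type A549 and by 1.68 in A549 knockout (adjusted p = 0.0274 and 0.00878, limma). In H2023 its differences were -1.03 and -0.62, and neither passed. INHBA was 1.01 higher in A549 knockout oncospheres on levels under 2 TPM (adjusted p = 0.0105).

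Of the receptors, TGFBR2 rose by 0.67 in wild-type A549, 1.06 in A549 knockout and 1.15 in H2023 knockout (adjusted p = 0.0268, 0.00436 and 0.00178, limma). In wild-type H2023 its difference was 0.01, with an interval of -0.47 to 0.49. TGFBR1 and TGFBR3 were not called in any of the 4 comparisons. The mitochondrial share of TPM was 10.3% to 18.7% in normal culture and 19.5% to 25.6% in oncospheres. With TPM rescaled without them, 2 of the 10 genes were called in H2023 knockout, SMAD7 and TGFBR2. TGFB1 (-0.30, adjusted p = 0.0553), TGFB2 (-0.41, adjusted p = 0.158) and SMAD3 (-0.57, adjusted p = 0.0934) then missed the threshold, as did SKIL (-0.40) and TGFBI (-1.06) in wild-type A549.

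**Figure D3:**
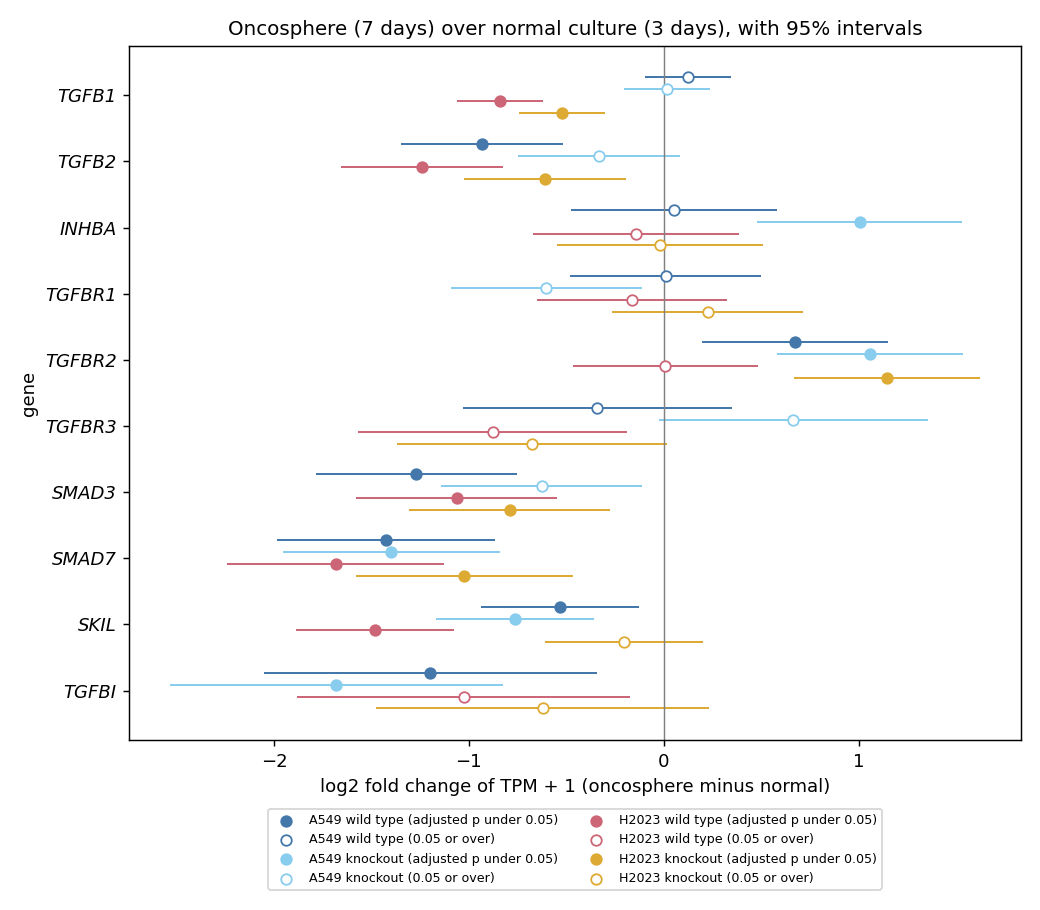
Log2 fold change of TPM + 1, oncosphere minus normal culture, for the 10 genes in the 2 genotypes of each line, with 95% intervals of the limma fit; filled points passed an adjusted p of 0.05. All 4 SMAD7 points are filled and lie between -1.68 and -1.02, and the filled TGFBR2 points lie to the right of 0.

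Single libraries carried several of these calls. In wild-type A549 the SKIL call was lost whichever of the 4 libraries was left out. TGFBI and TGFBR2 were lost as well without replicate 2 of normal culture or replicate 1 of the oncospheres, leaving 3 genes, and TGFBI also without replicate 1 of normal culture. INHBA, SKIL and TGFBI were lost in A549 knockout without replicate 1 of either culture, leaving 2. In H2023 knockout 3 genes were left without replicate 1 of normal culture (TGFB2 and SMAD3 lost) or without replicate 2 (SMAD3 and SMAD7 lost). There SMAD3 was also lost without replicate 1 of the oncospheres and TGFB2 without replicate 2. In wild-type H2023 SMAD3 was lost without replicate 2 of normal culture or replicate 1 of the oncospheres. Leukocyte markers, chiefly CD14, summed to 33.6 to 66.2 TPM in wild-type A549 oncospheres and 8.22 to 13.1 TPM in normal culture, and to 28.97 to 34.6 TPM in A549 knockout oncospheres against 6.61 to 6.88 TPM. Of the 6 epithelial markers 3 were higher in wild-type A549 oncospheres (all genes 19.1%) and 5 in A549 knockout (all genes 11.4%). In wild-type A549 KRT8 had less TPM in oncospheres (2617 and 3188) than in normal culture (3626 and 3569). KRT18 did too (2484 and 3210 against 3749 and 3995 TPM). The part of these markers in the culture differences was not tested.

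The third comparison set the wild-type lines side by side. H2023 had more mRNA of the receptors TGFBR3 and TGFBR1 than A549 and less of TGFB1, TGFB2 and SMAD3, in both cultures. In normal culture limma called 3 of the 10 genes higher and 3 lower in H2023 (41.5% of all genes called, 26.6% higher and 14.9% lower), and in oncosphere culture 2 higher and 3 lower (47.8% of all genes called, 23.4% higher and 24.4% lower). TGFBR3 was higher by 1.95 in normal culture (SE 0.32, adjusted p = 0.00044) and by 1.41 in oncospheres (adjusted p = 0.00317). TGFBR1 was higher by 0.90 and 0.73 (adjusted p = 0.00701 and 0.0187, limma). TGFB1 was lower by -0.27 in normal culture (adjusted p = 0.0484) and by -1.24 in oncospheres (SE 0.10, adjusted p = 2.35e-06). TGFB2 differed by -0.51 and -0.82 (adjusted p = 0.0482 and 0.00387) and SMAD3 by -0.88 and -0.67 (adjusted p = 0.0103 and 0.0335, limma). SKIL was 0.57 higher in H2023 normal culture (adjusted p = 0.0271). In normal culture, TGFB1 and TGFB2 missed the threshold whichever library was left out. TGFBR3 was the sole call without replicate 1 of A549, TGFBR3, TGFBR1 and SMAD3 without replicate 2 of A549, and TGFBR3 and SMAD3 without replicate 2 of H2023. In oncospheres SMAD3 and TGFBR1 were lost without replicate 1 of A549 or replicate 1 of H2023, and SMAD3 also without replicate 2 of A549. Centring libraries on their medians moved the median of all genes in normal culture from 0.12 to -0.10, with 41.8% of calls higher in place of 64.1%, and SKIL then missed the threshold (0.35, adjusted p = 0.149).

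Other genes of the pathway were counted in 6 lists that hold 59 further genes of 64 listed (LTBP2 stands in 2 of them). In A549 normal culture 15 of the 59 were higher and 4 lower in the libraries labelled knockout, with a median of 0.11 (all genes 7.32% higher and 10.4% lower). In A549 oncospheres 11 were higher and 8 lower (median -0.004, all genes 10.2% and 10.5%). In H2023 normal culture 1 was higher and 2 lower (median 0.02, all genes 1.03% and 1.97%), and in H2023 oncospheres 7 and 1 (median 0.18, all genes 3.17% and 2.4%). The largest changes in A549 normal culture were in MMP2, a matrix metalloproteinase, at 3.91 and 3.03 TPM in wild type and 113 and 114 TPM in knockout (4.69), INHBB, the beta B subunit of activin and inhibin, at 46.3 and 35.3 against 3.39 and 4.05 TPM (-3.14), and SNAI2, a repressor of epithelial genes, at 0.52 and 0.53 against 8.54 and 14.1 TPM (2.98). Their adjusted p-values were 3.49e-05, 5.95e-05 and 3.37e-05 (limma). In A549 oncospheres MMP2 was again the largest (3.23 and 6.01 against 220 and 263 TPM, 5.47), followed by FST, the activin antagonist follistatin (5.66 and 4.92 against 0.06 and 0.06 TPM, -2.57), and FSTL1, a secreted follistatin-like protein (1.62 and 4.65 against 21.9 and 20.4 TPM, 2.52).

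Among ligands and their binding or latency proteins (13 genes) 5 were higher and 1 lower in A549 normal culture (all genes 7.32% and 10.4%). The 5, which the rule for naming genes did not pick, were INHA, FSTL1, LTBP2, LTBP3 and LTBP4, of which LTBP3 and LTBP4 encode proteins that bind latent TGF-beta. Transcriptional targets (22 genes) had 9 higher and 1 lower there. In A549 oncospheres the targets split into 5 higher and 4 lower (all genes 10.2% and 10.5%). H2023 normal culture had 1 of the 22 targets higher and 1 lower, FN1, fibronectin (80.8 and 78.8 against 13.3 and 16.6 TPM, -2.35). The lower ligand gene was INHBB (19.2 and 21.9 against 4.89 and 4.96 TPM, -1.86). In H2023 oncospheres 3 of 7 other receptor genes were higher and 1 lower (all genes 3.17% and 2.4%). ACVRL1, the type I receptor ALK1, had the largest change (1.32 and 3.80 against 11.1 and 16.3 TPM, 2.12), followed by MMP2 (46.1 and 13.2 against 110.3 and 63.2 TPM, 1.71) and COL4A1, a basement membrane collagen (7.95 and 3.95 against 17.2 and 14.6 TPM, 1.34). Without 1 library some of these H2023 calls were lost: MMP2 and COL4A1 without any library but replicate 1 of wild type, INHBB without any but replicate 1 of wild type, and FN1 without replicate 1 of knockout. On the 4 libraries of the comparison alone, none of these 5 H2023 calls passed (limma, adjusted p from 0.102 to 0.35). Those fits called no gene at all in either H2023 culture, so they cannot set these genes apart.

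**Figure D4:**
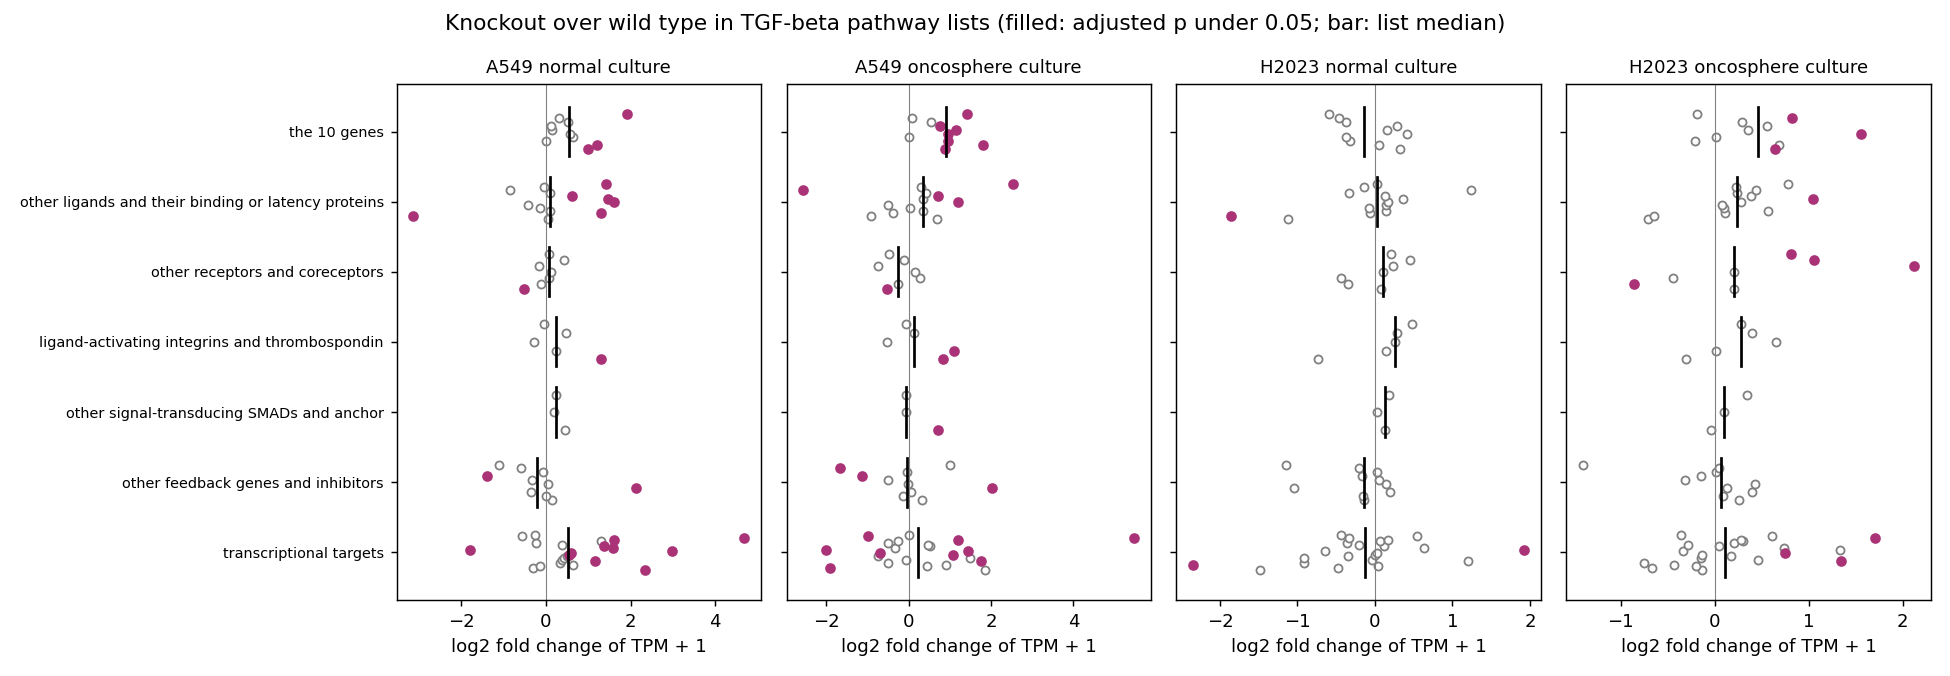
Log2 fold change of TPM + 1, libraries labelled knockout minus wild type, 1 panel per comparison with its own axis, for the 10 genes and for 6 lists of other pathway genes; each point is a gene, filled where the adjusted p was under 0.05, and the bar is the list's median. In A549 normal culture most filled points among the transcriptional targets lie to the right of 0, and in H2023 normal culture 3 points outside the 10 genes are filled.

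Between cultures, 10 of the 59 genes were higher and 14 lower in wild-type A549 oncospheres (all genes 19.1% and 22.4%), and 5 and 11 in A549 knockout (all genes 11.4% and 11%). In H2023 the counts were 2 and 17 in wild type (all genes 5.17% and 22.2%) and 9 and 18 in knockout (all genes 9.76% and 22.7%). CCN1, a matricellular target gene, was among the 3 largest in all 4 comparisons, at -3.67, -3.09, -2.43 and -2.67, and FN1 in 3, at 2.61 and 2.87 in A549 wild type and knockout and 3.13 in H2023 knockout. Also named by the same rule were FSTL1 in wild-type A549 (-2.24) and wild-type H2023 (-2.37), PMEPA1, a feedback inhibitor, in wild-type H2023 (-2.55) and ACVRL1 in H2023 knockout (2.47). PMEPA1 was at 16.2 and 73.5 TPM in wild-type H2023 normal culture and at 4.99 and 5.21 TPM in its oncospheres. Its difference ranged from -3.61 to -1.50 with 1 library left out. Between the wild-type lines, 25 of the 59 were higher and 6 lower in H2023 in normal culture (all genes 26.6% and 14.9%), and 17 higher and 14 lower in oncospheres (all genes 23.4% and 24.4%). MMP2 was higher in H2023 in both cultures (3.40 and 2.25), and PMEPA1 was lower in oncospheres (-2.68).

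Over the 8 group means of log2(TPM + 1), some of the 10 genes followed each other closely. These correlations are a description over 8 means that share lines and cultures, with no test. TGFB1 and TGFB2 gave r = 0.938, TGFB2 and TGFBI 0.914, SMAD7 and SKIL 0.903, TGFB2 and SMAD3 0.888, and SMAD3 and TGFBI 0.832. TGFB1 and its receptor gene TGFBR1 gave -0.470, and TGFB1 and TGFBR2 gave 0.303. Of 12550 genes with at least 5 TPM in some group, those most like TGFB1 were NRP2 (0.991), MRC2 (0.986) and FUT8 (0.986), and those most like TGFB2 were BOK (0.991), COL18A1 (0.98) and TRPM7 (0.974). For TGFBR2 they were NPIPB2 (0.959), CES2 (0.953) and MXRA8 (0.934), and for TGFBR3 NACC2 (0.992), RGS9 (0.991) and DVL3 (0.989). TGFBR1 was most like TTC30A (0.964), DAAM1 (0.961) and NFIL3 (0.948), and SMAD3 most like CHSY1 (0.994), AP1S2 (0.989) and KIAA0753 (0.987). SMAD7 was closest to HNRNPA3P6 (0.982), SNHG26 (0.98) and ASAP1 (0.979), SKIL to HIVEP1 (0.974) and PLEC (0.955), and TGFBI to GPR161 (0.987), UCN2 (0.984) and LINC02609 (0.976).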

How the data were processed

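RNA was measured in 16 stranded mRNA libraries, in 8 groups of 2. Reads were processed with HISAT2 and StringTie on GRCh38, per the submitters' processing notes, and the versions are not given in the sources used here. Each of the 4 deposited tables covers 1 line and culture and holds the authors' TPM per library. It also holds the authors' mean normalized signal over the 4 libraries, log2 fold change, its test score and its p-value, raw and adjusted. In every row the score is positive where the log2 fold change is negative and the reverse, and only the fold change and the adjusted p-value were used. A library's cell line was read from its table and its genotype and replicate from the column name, and 0 columns had no label. Repeated rows were dropped, which left 18227 genes. Depth cannot be recovered from TPM.

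Limma 3.58.1 (R 4.3.3) was fitted with a mean-variance trend to log2(TPM + 1) of all 16 libraries as 8 group means (8 residual degrees of freedom). Tests were two-sided, with Benjamini-Hochberg adjustment over all genes of a comparison. Data were simulated with independent normal noise around each gene's mean, and changes were planted only in genes with a mean of at least 5 TPM. Of 100 genes changed by 1 on the log2 scale 36 to 80 were recovered per comparison, and 84 to 98 of 100 changed by 2. These rates do not cover genes as low as INHBA. Python 3.11.15 with pandas 2.3.3 and matplotlib 3.10.9 did the rest. Besides the 10 genes, the 3 pathway genes with the largest change among those called were named in each comparison, except some that are not reported here. The 10 genes, lists and tests were chosen with earlier results of these data known. Alternatives were a pseudocount of 0.1, a mean of at least 1 TPM, TPM without mitochondrial genes, median-centred libraries, no trend, a replicate block, the libraries of a comparison alone, each library left out, and the authors' deposited table. LEFTY1, LEFTY2, TDGF1, CDKN2A and CDKN2B were not analysed here.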

Additional observations from a re-analysis of the deposited data

Results flagged for a closer look

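The results below were picked out because the effect of the knockout label differed between the cultures or between the lines past an adjusted p of 0.05 by an interaction term in limma. In A549 the effect in oncospheres minus that in normal culture was 2.23 for INHBB (adjusted p = 0.0111), which was far lower in the libraries labelled knockout in normal culture and less so in oncospheres. It was -1.92 for TGFB1I1 (Hic-5, a focal adhesion protein, adjusted p = 0.00369) and -1.72 for FST (adjusted p = 0.0488). INHBB missed the threshold without replicate 1 of wild-type normal culture (2.04, adjusted p = 0.0543). FST did so without any library but replicate 1 of wild-type normal culture, with values from -1.90 to -1.24.

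In normal culture the effect in H2023 minus that in A549 was -0.66 for TGFB1, -1.15 for TGFB2 and -2.50 for TGFBI. For MMP2, outside the 10 genes, it was -5.03 (adjusted p = 0.000483). TGFBI was lost without replicate 1 of wild-type A549 and TGFB2 without that library, replicate 1 of A549 knockout or replicate 2 of H2023 knockout. In oncospheres the difference was -1.12 for TGFB2, -1.15 for INHBA, -3.76 for MMP2 (adjusted p = 0.00167) and 3.01 for FST (adjusted p = 0.00175). INHBA, at or under 1.85 TPM everywhere, was lost without 6 of the 8 libraries, and TGFB2 without replicate 1 of wild-type A549, replicate 2 of A549 knockout or replicate 2 of H2023 knockout.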

How the results depend on the processing

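Of 83 named changes past the threshold none reversed under any alternative run. The 83 were picked for passing in the main fit, and every run used the same libraries, so this is no separate test of them. TGFB1 and TGFB2 in both A549 cultures, and TGFB1 and TGFBR2 in H2023 oncospheres, passed with each library left out in turn. For the knockout label, the authors' deposited table gave 6 of the 10 genes in A549 normal culture (3 here), 1 in H2023 normal culture (0 here) and 1 in H2023 oncospheres (3 here). In H2023 oncospheres the authors' deposited table gave TGFB1 at 0.47 (adjusted p = 0.158), short of the threshold. The 4 libraries of that comparison alone gave 0, and called no gene at all. For culture, the own libraries gave 3 in wild-type H2023 (5 here), and H2023 knockout gave 2 without mitochondrial genes and 3 with centred libraries (5 here). For the lines in oncospheres, the own libraries gave 2 (5 here). For differences of effects, the authors' deposited fold changes gave 2 between A549 cultures (0 here) and 6 between lines in normal culture (3 here), and the lines in oncospheres gave 1 with the filter, which removes INHBA, and 0 on their own libraries (2 here). Where no construction is named, the cause was not tested. The counts above compare runs with each other and are not set against the share of all genes called in each run.

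With 1 library left out the count of the 10 genes ranged from 2 to 3 and 2 to 4 for A549 knockout in normal and oncosphere culture, 0 to 0 and 2 to 3 for H2023, 3 to 5, 2 to 5, 5 to 6 and 3 to 4 for culture (A549 wild type, A549 knockout, H2023 wild type, H2023 knockout), and 1 to 4 and 3 to 5 for the lines. For the differences of effects it ranged from 0 to 1 and 0 to 0 between cultures of A549 and H2023, and from 1 to 5 and 0 to 4 between lines.

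Genes that were not called were followed for a change of direction in the comparisons of the knockout label alone. All values that reversed, 25, belong to such genes. In the other comparisons the direction of genes that were not called was not checked. With 1 library left out, INHBA ranged from -0.042 to 0.028, TGFBR3 from -0.073 to 0.34 and SMAD3 from -0.097 to 0.323 in A549 normal culture, and TGFBR1 from -0.221 to 0.256 and SKIL from -0.009 to 0.186 in A549 oncospheres. In H2023 normal culture TGFB2 ranged from -0.135 to 0.233, TGFBR3 from -0.248 to 0.565, SMAD7 from -0.781 to 0.039 and TGFBI from -1.214 to 0.026. In H2023 oncospheres INHBA ranged from -0.429 to 0.021, TGFBR1 from -0.096 to 0.13 and TGFBI from -0.742 to 0.368. Centring gave 0.024 for INHBA in A549 normal culture and -0.063 for TGFBR1 in H2023 oncospheres. Without mitochondrial genes TGFBR1 was -0.016 in A549 and -0.003 in H2023 oncospheres. The authors' deposited table gave -0.106 for TGFBR1 and -0.094 for SKIL in A549 oncospheres, -0.015 for TGFB2 in H2023 normal culture and -0.012 for TGFBR1 in H2023 oncospheres.

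Over all genes, the own libraries gave 1971 calls against 3233 in A549 normal culture, 2413 against 3780 in A549 oncospheres, 0 against 546 and 0 against 1014 in H2023 (normal, oncosphere), 1105 against 4986 for culture in wild-type H2023, 0 against 1 for the H2023 difference between cultures and 1795 against 2966 for the lines in oncospheres. For that H2023 difference the filter gave 4, the block 3 and the authors' deposited fold changes 71. The authors' deposited table gave 1665 in H2023 normal culture. With 1 library left out the calls for the knockout label ranged from 1426 to 2368 and 2164 to 3030 in A549 and from 103 to 477 and 314 to 600 in H2023. The share of calls that were higher in H2023 oncospheres labelled knockout was 56.9%, 35.6% when centred and 43.8% in the authors' deposited table. Without mitochondrial genes the share for culture went from 46% to 56.6% in wild-type A549, from 18.9% to 45.3% in wild-type H2023 and from 30% to 51.8% in H2023 knockout, and that of the A549 difference between cultures from 57.7% to 47.6%. Centring moved that of the lines' difference in oncospheres from 57.6% to 47.3%.

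The main fit did not take the replicate numbers to pair the samples. Of 28 pairs of groups, 5 had a correlation of deviations over 0.1 (range -0.1 to 0.461), and all 5 lay within a line. Within a line, every pair that differed in culture or genotype alone had a positive correlation (0.027 to 0.461). Replicate 2 had the higher mitochondrial share of TPM in every group. Whether equal numbers share a batch was not tested. The highest correlation was between wild-type and knockout H2023 oncospheres. There SMAD3 and TGFBR3 were higher in knockout within both numbers (limma with the block, adjusted p = 0.193 and 0.382). With the replicate block, limma called 4, 7, 0 and 3 of the 10 genes for the knockout label (A549 normal and oncosphere, H2023 normal and oncosphere), 6, 5, 7 and 6 for culture, 4 and 6 for the lines, 0 and 0 between cultures and 3 and 3 between lines. The block added TGFBR2 in A549 normal culture, TGFBI and TGFBR3 for culture in wild-type H2023, TGFBR3 in H2023 knockout, TGFBR2 for the lines and TGFBI for their difference in oncospheres. It lost TGFB1 and TGFB2 for the lines in normal culture. These counts compare the block with the main fit and are not set against the share of all genes called with the block. Depth per library is unknown, and the authors' deposited mean normalized count of INHBA was 1.72 and 38.1 in A549 normal and oncosphere culture and 10.3 and 9.25 in H2023.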
